A study of Saccharomyces cerevisiae with 18 samples.

Results

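The 7 genes described here encode the enzymes that pass electrons from NADH and from succinate to ubiquinone in the mitochondria of Saccharomyces cerevisiae. They are the internal NADH dehydrogenase gene NDI1, the external NADH dehydrogenase genes NDE1 and NDE2, and the succinate dehydrogenase genes SDH1, SDH2, SDH3 and SDH4. The members were taken by gene name from the 6713 loci of the deposited count table, and all 7 were among the 5766 loci with enough counts to be tested. No filter on their values was used, but earlier results of these data were known when they were chosen. RNA-Seq was carried out on 18 libraries from 9 conditions, with 2 libraries per condition, in which 3 alleles of the transcription factor gene YRR1 were each grown in 3 media. Every strain was S96, a MATa lys5 laboratory strain, with the chromosomal YRR1 coding region replaced by a hygromycin-resistance gene. Each carried a G418-selected plasmid with 1 YRR1 allele under its endogenous promoter and terminator. Yrr1IE was the S96 allele with the I775E substitution, made to mimic phosphorylation, Yrr1Y was the allele of the clinical isolate YJM789, and Yrr1S was the unaltered S96 allele. Cultures were kept for 10 h in 3% glycerol after washing, for 2.5 h in YPD with 0.25 µg/ml 4NQO, a DNA-damaging and oxidizing compound, or for 2.5 h in YPD, the rich glucose medium that served as the reference. Carbon source, wash and time therefore cannot be told apart in the glycerol comparison. Duplicate cultures were divided into subcultures, but which libraries shared a culture was not given, so p-values measure the spread between these libraries, part of which may be technical.

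The libraries held 1475372 to 2826771 counts. The 2 libraries of a condition correlated at r = 0.958 to 0.983 across loci, and none were identical. In the 6 Yrr1IE libraries SNF1, which encodes the protein kinase needed to express glucose-repressed genes, had 0 to 2 counts, against 179 to 297 counts in the other 12 libraries. The I775E substitution and the near absence of SNF1 RNA cannot be told apart in any comparison with Yrr1IE below. YRR1 itself had 89 to 199 counts in Yrr1IE libraries and 138 to 570 counts in the others. The DNA-damage gene HUG1 had 1259 to 1760 counts in 4NQO, against 6 to 59 counts in YPD. The glycerol kinase gene GUT1 had 305 and 319 counts with Yrr1IE and 1563 to 1781 counts with the other alleles in glycerol, against 133 to 207 counts in YPD. HXK1, also chosen as a glycerol check, had 2190 and 2869 counts with Yrr1IE and 1769 to 3335 with the other alleles in glycerol. In YPD it had 123 to 415, and in 4NQO 971 to 2301, so that its rise was not particular to glycerol. ICL1, a further check, had 132 and 155 counts with Yrr1IE in glycerol and 1952 to 2630 with the other alleles. Its YPD counts were 84 to 165. MF(ALPHA)1, the main alpha-factor gene, had at most 11 counts in any library, and the 4 alpha-specific genes summed to 59.4 to 175 CPM. Of these 4, MF(ALPHA)1 was the lowest. SAG1 had 94 to 199 counts, STE3 2 to 74 and MF(ALPHA)2 4 to 22. CPM are counts scaled to a common library size. The 7 a-specific genes summed to 308 to 1026 CPM in glycerol and 2499 to 3737 CPM in 4NQO, against 3085 to 4692 CPM in YPD. ASG7, among these 7, was not lower: it had 13.3 to 39.6 CPM in glycerol, within the 9.09 to 45.9 CPM of YPD. The part of the lower summed a-specific RNA of glycerol cultures in the results below was not tested.

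Budding yeast lacks the proton-pumping NADH dehydrogenase complex of most other eukaryotes. It oxidizes NADH instead with single-subunit flavoproteins of the inner mitochondrial membrane, Ndi1 facing the matrix and Nde1 and Nde2 facing the cytosol. Succinate dehydrogenase, an enzyme of both the tricarboxylic acid cycle and the respiratory chain, consists of the flavoprotein Sdh1, the iron-sulfur protein Sdh2 and the membrane anchors Sdh3 and Sdh4. Many respiratory genes of yeast are repressed while glucose is abundant and are expressed on carbon sources such as glycerol, through activators that include the CCAAT-binding Hap complex and with release from the repressor Mig1.

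Each member is a single-exon gene on the R64 build. NDI1 (YML120C) lies on the minus strand of chromosome XIII at 28266 to 29807, and NDE1 (YMR145C) on the same strand at 554793 to 556475. NDE2 (YDL085W) lies on the plus strand of chromosome IV at 303211 to 304848. SDH1 (YKL148C) and SDH3 (YKL141W) are both on chromosome XI, at 169207 to 171129 on the minus strand and at 179667 to 180263 on the plus strand. SDH2 (YLL041C) is on chromosome XII at 53131 to 53931 on the minus strand, and SDH4 (YDR178W) on chromosome IV at 817950 to 818495 on the plus strand. No other annotated locus overlaps the coding coordinates of a member. The libraries were unstranded, and unannotated antisense transcripts and untranslated regions of neighbours were not examined. NDE1 and NDE2 shared 64% of 1625 aligned coding bases, with at most 11 identical bases in a row. NDI1 shared 64.4% of 1445 aligned bases with NDE1 and 60.8% of 1458 with NDE2, with at most 11 and 13 in a row. The closest relative of any member was YJL045W, which shared 75.9% of 1902 aligned bases with SDH1 and at most 23 in a row.

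The region from 250 bases before to 50 bases after the first base of the start codon is shown for 4 members that differ in their letters and in their values: NDI1 (chrXIII:29758-30057, minus strand), NDE1 (chrXIII:556426-556725, minus strand), NDE2 (chrIV:302961-303260, plus strand) and SDH2 (chrXII:53882-54181, minus strand), all on R64 and 5′ to 3′ along the gene, with the start codon at base 251. Capitals mark CCAAT, the letters bound by the Hap complex, and the GC-rich letters bound by Mig1, which are CCCC followed by a purine (adenine or guanine) and then by guanine or cytosine, on either strand.
NDI1: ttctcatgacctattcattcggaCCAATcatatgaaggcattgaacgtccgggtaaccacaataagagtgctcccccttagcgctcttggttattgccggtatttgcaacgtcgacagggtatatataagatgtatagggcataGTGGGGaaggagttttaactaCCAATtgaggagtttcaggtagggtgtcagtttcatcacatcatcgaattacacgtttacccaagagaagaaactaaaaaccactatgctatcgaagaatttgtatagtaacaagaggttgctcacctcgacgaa
NDE1: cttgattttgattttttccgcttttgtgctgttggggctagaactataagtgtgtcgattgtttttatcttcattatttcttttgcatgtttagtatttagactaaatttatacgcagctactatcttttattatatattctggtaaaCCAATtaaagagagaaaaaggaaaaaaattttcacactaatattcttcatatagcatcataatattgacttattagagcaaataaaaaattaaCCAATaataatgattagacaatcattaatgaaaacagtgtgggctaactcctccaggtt
NDE2: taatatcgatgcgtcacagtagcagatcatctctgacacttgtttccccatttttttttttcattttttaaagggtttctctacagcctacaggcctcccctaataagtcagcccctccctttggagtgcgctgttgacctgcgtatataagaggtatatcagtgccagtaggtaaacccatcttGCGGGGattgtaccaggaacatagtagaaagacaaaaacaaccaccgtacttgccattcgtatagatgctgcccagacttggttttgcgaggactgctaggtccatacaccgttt
SDH2: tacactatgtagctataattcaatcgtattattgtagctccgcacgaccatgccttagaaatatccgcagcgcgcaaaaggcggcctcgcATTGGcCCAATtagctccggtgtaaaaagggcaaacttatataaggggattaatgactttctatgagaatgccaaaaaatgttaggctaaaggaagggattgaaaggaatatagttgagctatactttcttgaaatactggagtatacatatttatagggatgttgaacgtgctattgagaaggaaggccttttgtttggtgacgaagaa

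CCAAT on either strand was present in 6 of the 7 members and in 43.3% of the 6001 promoters of the same length. NDE2 was the member without it. Its capitals are a Mig1-type match, GCGGGG, that begins 65 bases before the start codon. Mig1-type letters were present in 4 members, NDI1, NDE2, SDH3 and SDH4, against 11.6% of all promoters. SDH2 had CCAAT on opposite strands at 160 and 154 bases before the start codon, separated by a single base. The NDE1 matches lay at 102 and 9 bases before the start codon, and no Mig1-type letters were found in its window. The element bound by the activators Cat8 and Sip4, CC and CCG with any 6 bases between them, was in none of the 7 windows and in 10.2% of all promoters. No 2 of the matches shared a base. With only the bases before the start codon searched, the member counts were unchanged and the shares of all promoters were 35.4%, 9.58% and 8.60% for CCAAT, the Mig1 letters and the Cat8 and Sip4 element. Such matches describe letters and do not show binding.

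Levels were compared between genes in the deposited FPKM, fragments per kilobase of gene, scaled to the depth of the library. In glycerol the membrane anchors and the iron-sulfur subunit were the highest. With Yrr1IE there SDH4 averaged 1262 FPKM, SDH3 1076, SDH2 898, SDH1 289, NDE1 260, NDI1 208 and NDE2 165, and libraries overlapped between SDH3 and SDH2 and between SDH1 and NDE1. With Yrr1S in glycerol SDH3 averaged 2169 FPKM, SDH2 2023, SDH4 1950, SDH1 940, NDE1 880, NDE2 523 and NDI1 430, and the libraries of SDH1 and NDE1 overlapped. NDE2 and NDI1 were the 2 lowest members in glycerol with each allele. In the glucose media NDE2 was the lowest of the 7 in all 6 conditions, and NDE1 was the highest in 5 of them. With Yrr1IE in YPD, SDH3 at 285.5 FPKM and NDE1 at 281.2 FPKM overlapped between libraries, as did SDH1 at 41.2 and NDI1 at 41.0 FPKM. In YPD with Yrr1S the mean levels were 529 FPKM for NDE1, 275 for SDH3, 222 for SDH4, 134 for SDH2, 70.6 for SDH1, 50.5 for NDI1 and 2.15 for NDE2, and Yrr1Y had the same order. The order was the same in all 9 conditions with CPM per kilobase of gene in place of FPKM.

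**Figure D1:**
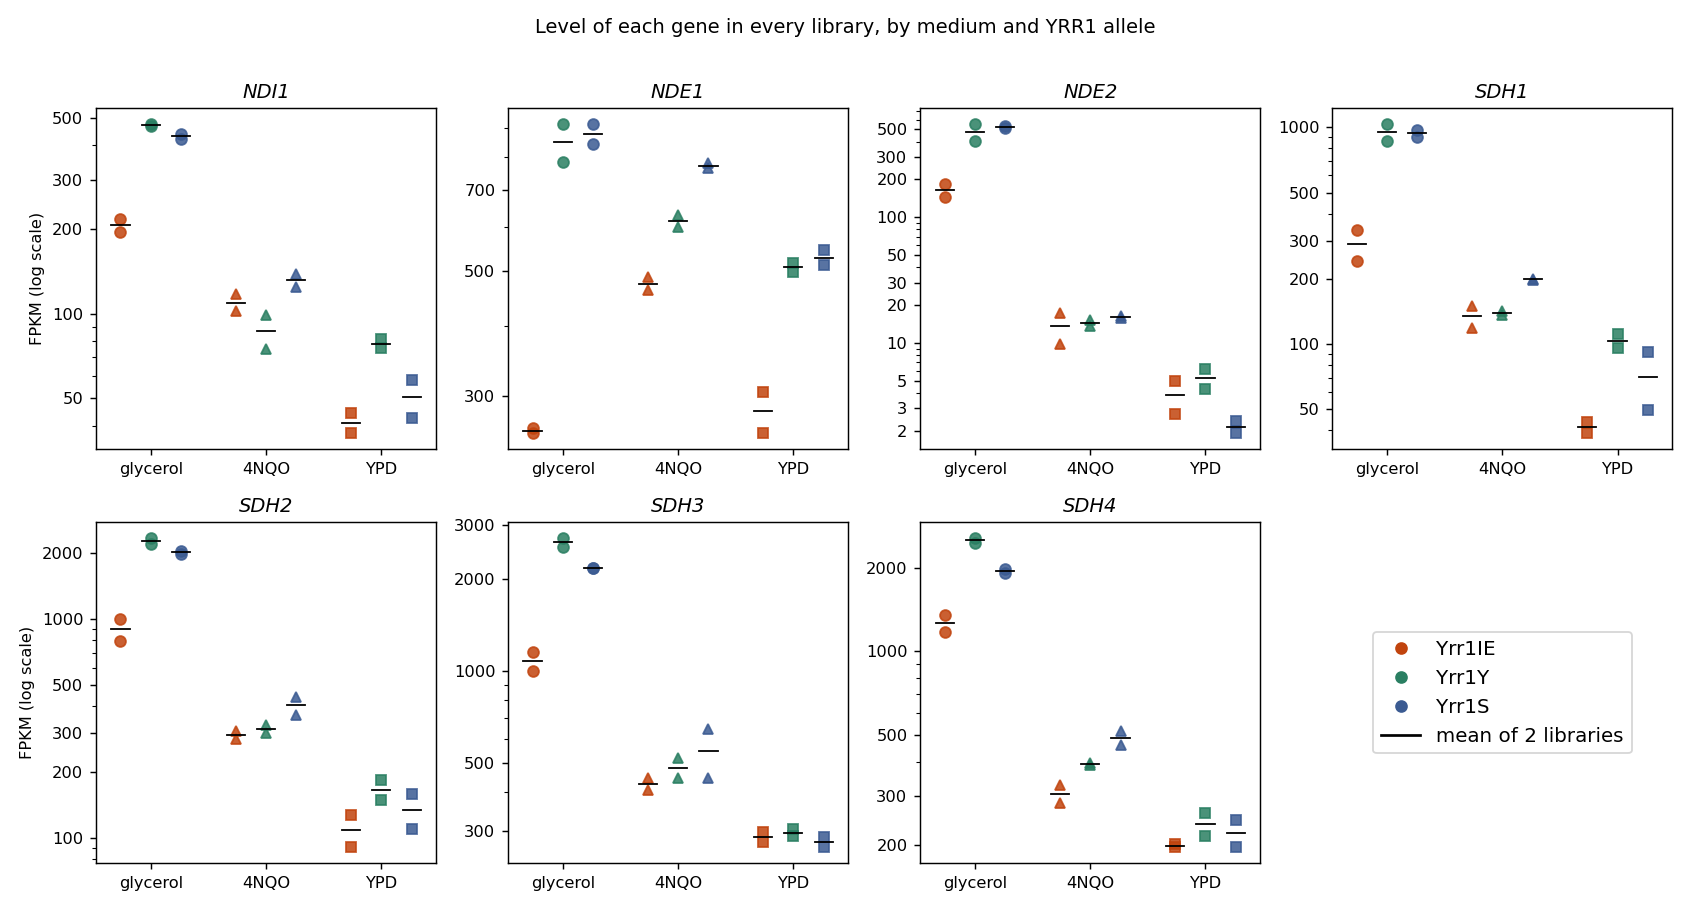
Level of each member in FPKM (log axis, own scale per panel) in all 18 libraries, grouped by medium (glycerol, 4NQO, YPD) and coloured by allele, with a line at the mean of 2 libraries. NDE2 lies between 145.7 and 554.9 FPKM in glycerol and between 1.9 and 6.2 FPKM in YPD, whereas NDE1 with Yrr1IE measures 256.9 and 262.5 FPKM in glycerol and 257.8 and 304.6 FPKM in YPD.

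Among the NADH dehydrogenases the mixture differed between media. NDE1 made up 41.2% ± 3.15 of the summed NADH dehydrogenase FPKM in glycerol with Yrr1IE, against 86.2% ± 2.27 in YPD (SD, n = 2 each). Its share was 47.2% ± 5.76 in glycerol and 85.9% ± 1.11 in YPD with Yrr1Y, and 48.0% ± 0.618 in glycerol and 91.0% ± 1.41 in YPD with Yrr1S. NDE1 thus held most of the summed level in YPD and, on average, less than NDE2 and NDI1 together in glycerol. NDE2 took up 26.0% ± 2.66, 26.6% ± 5.65 and 28.5% ± 0.283 in glycerol with Yrr1IE, Yrr1Y and Yrr1S, against 1.16% ± 0.392, 0.889% ± 0.239 and 0.368% ± 0.0391 in YPD. The share of the internal enzyme NDI1 was 32.8% ± 0.493 in glycerol with Yrr1IE, 26.2% ± 0.115 with Yrr1Y and 23.5% ± 0.335 with Yrr1S, and these libraries did not overlap between alleles. The summed level itself was 632.0 ± 38.7 FPKM in glycerol with Yrr1IE, 1801 ± 18 FPKM with Yrr1Y and 1833 ± 85.3 FPKM with Yrr1S. In 4NQO, NDE1 still made up 79.4% ± 2.74, 85.9% ± 1.5 and 83.9% ± 0.747 with Yrr1IE, Yrr1Y and Yrr1S. These shares are a description and were not tested.

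**Figure D2:**
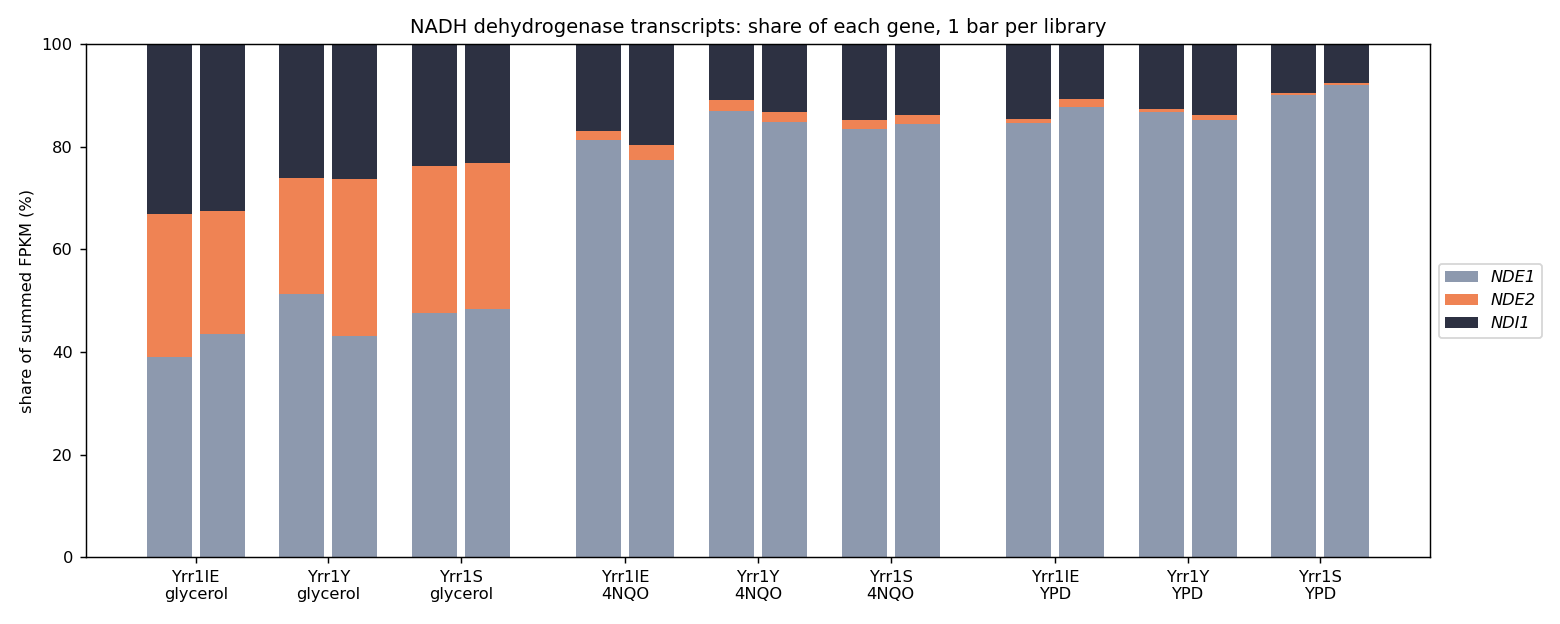
Share of the summed FPKM of the 3 NADH dehydrogenase genes (percent, stacked bars from 0 to 100) taken by NDE1, NDE2 and NDI1, with 1 bar per library. Averaged over 2 libraries NDE1 takes 41.2% to 48.0% in glycerol and 79.4% to 91.0% in 4NQO and YPD.

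The comparison of glycerol with YPD asks how the members respond when glucose is replaced by a carbon source that must be respired. All levels are of bulk RNA, so that fewer expressing cells and less RNA per cell cannot be told apart. In glycerol 6 of 7 members were higher with Yrr1IE, 7 of 7 with Yrr1Y and 7 of 7 with Yrr1S (edgeR quasi-likelihood test, Benjamini-Hochberg adjusted p below 0.05 over all loci tested), where 33.2%, 28.5% and 29.1% of all loci tested were higher. The median log2 fold change of the members was 2.66, 3.10 and 2.95, against 0.03, 0.04 and 0.04 for all loci tested. The 3 alleles have their own glycerol and YPD libraries, and the 4NQO comparisons further on use the same YPD libraries.

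NDE2 had the largest fold change of the 7 members with each allele. With Yrr1IE it measured 183.7 and 145.7 FPKM in glycerol, against 2.7 and 5.0 FPKM in YPD. With Yrr1Y it measured 404.3 and 554.9 FPKM in glycerol, against 4.3 and 6.2 FPKM in YPD. With Yrr1S it measured 509.6 and 536.7 FPKM in glycerol, against 2.4 and 1.9 FPKM in YPD. Glycerol and YPD libraries were far apart with every allele, and NDE2 was close to silent in YPD. The YPD values rest on 10 and 22 counts with Yrr1IE, 13 and 19 with Yrr1Y, and 8 and 9 with Yrr1S, so that the fold changes depend on few reads. The log2 fold change was 5.37 ± 0.25 (SE) with Yrr1IE, a 41.4-fold difference, 6.41 ± 0.24 with Yrr1Y, 85.3-fold, and 7.73 ± 0.27 with Yrr1S, 212-fold. NDE2 ranked 48, 44 and 22 from the highest of 5766 loci.

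NDE1, which encodes the other enzyme on the same face of the membrane, behaved differently. It measured 256.9 and 262.5 FPKM in glycerol with Yrr1IE, against 257.8 and 304.6 FPKM in YPD, and the CPM of these libraries overlapped. With Yrr1Y it measured 917.2 and 782.5 FPKM in glycerol, against 517.9 and 498.8 FPKM in YPD. With Yrr1S it measured 843.2 and 917.1 FPKM in glycerol, against 545.3 and 512.8 FPKM in YPD. NDE1 rose with Yrr1Y and Yrr1S, and its log2 fold change with Yrr1IE was -0.13 ± 0.12. The log2 fold change was 0.65 ± 0.12 with Yrr1Y and 0.55 ± 0.12 with Yrr1S (edgeR, adjusted p = 0.38, 3.6e-05 and 0.00027 with Yrr1IE, Yrr1Y and Yrr1S).

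NDI1 rose with every allele. It measured 218.8 and 196.4 FPKM in glycerol with Yrr1IE, against 44.4 and 37.5 FPKM in YPD. It measured 466.7 and 476.3 FPKM in glycerol with Yrr1Y, against 75.3 and 81.1 FPKM in YPD, and 420.0 and 439.6 FPKM in glycerol with Yrr1S, against 58.2 and 42.7 FPKM in YPD. The log2 fold changes were 2.33 ± 0.15 with Yrr1IE, 2.50 ± 0.15 with Yrr1Y and 2.92 ± 0.15 with Yrr1S. Glycerol and YPD libraries did not overlap with any allele.

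All 4 succinate dehydrogenase genes rose with each allele. SDH1, the catalytic flavoprotein gene, measured 336.5 and 242.2 FPKM in glycerol with Yrr1IE, against 43.7 and 38.7 FPKM in YPD. It measured 1037.8 and 860.6 FPKM in glycerol with Yrr1Y, against 95.8 and 111.6 FPKM in YPD, and 976.4 and 902.9 FPKM in glycerol with Yrr1S, against 91.5 and 49.7 FPKM in YPD. The Yrr1S libraries in YPD were unequal, and the difference between the media was many times larger than that gap. The SDH1 log2 fold changes were 2.80 ± 0.18 with Yrr1IE, 3.10 ± 0.17 with Yrr1Y and 3.57 ± 0.18 with Yrr1S. SDH2, the iron-sulfur subunit gene, had 3.05 ± 0.16, 3.69 ± 0.16 and 3.74 ± 0.16 with Yrr1IE, Yrr1Y and Yrr1S, the last a 13.4-fold difference. It measured 1000.7 and 795.6 FPKM in glycerol with Yrr1IE, against 126.7 and 90.2 FPKM in YPD, and 2051.1 and 1994.3 FPKM in glycerol with Yrr1S, against 158.6 and 110.0 FPKM in YPD. The anchors SDH3 and SDH4 were at higher levels in YPD than SDH1 and SDH2. SDH3 had log2 fold changes of 1.91 ± 0.15, 3.06 ± 0.16 and 2.79 ± 0.15, and SDH4 of 2.66 ± 0.14, 3.30 ± 0.14 and 2.95 ± 0.14, each with Yrr1IE, Yrr1Y and Yrr1S in that order. The summed succinate dehydrogenase level was 3525 ± 22.1 FPKM in glycerol and 634 ± 11.1 FPKM in YPD with Yrr1IE, 8377 ± 425 and 804 ± 55.6 FPKM with Yrr1Y, and 7082 ± 53.6 and 702 ± 114 FPKM with Yrr1S (SD, n = 2 each).

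**Figure D3:**
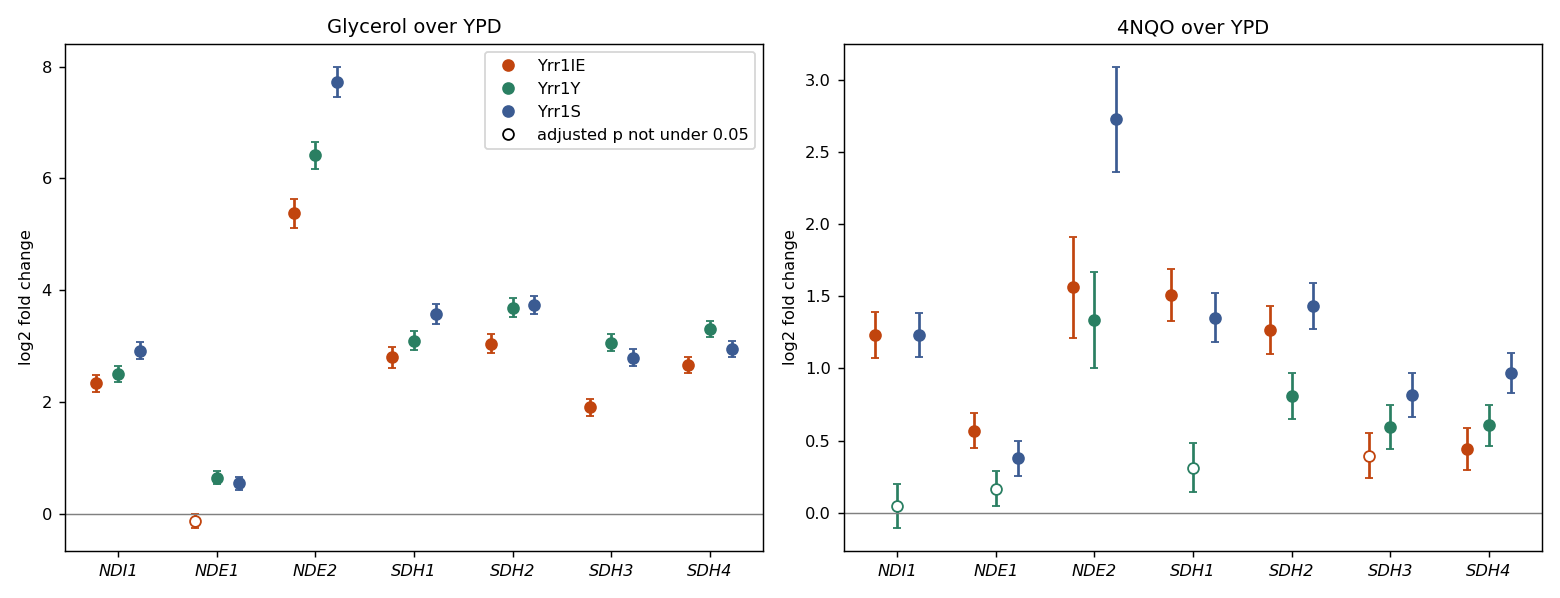
Log2 fold change (edgeR, error bars 1 SE) of each member in glycerol over YPD and in 4NQO over YPD, by allele, with filled points where the adjusted p was below 0.05. NDE2 reaches 5.37 to 7.73 in glycerol, and NDE1 with Yrr1IE sits at -0.13.

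The other genes of the pathway are given by count. All 4 succinate dehydrogenase assembly factor genes, SDH5 to SDH8, were higher in glycerol with every allele, as were GUT2, DLD1 and CYB2, which encode dehydrogenases that feed electrons from glycerol 3-phosphate and lactate into the chain. GUT2 had log2 fold changes of 2.99, 3.87 and 4.70 with Yrr1IE, Yrr1Y and Yrr1S. Of the 10 genes for the bc1 complex and cytochrome c, 9, 10 and 10 were higher with Yrr1IE, Yrr1Y and Yrr1S, and of the 11 other tricarboxylic acid cycle genes 10, 11 and 11. Coenzyme Q synthesis was mixed, with 6, 5 and 6 of 9 genes higher and 2, 1 and 1 lower. Of the 5766 loci tested, 1863, 1559 and 1649 were lower with Yrr1IE, Yrr1Y and Yrr1S. Of the 4 genes of NADH shuttling and reoxidation, 3, 2 and 2 were higher and 0, 1 and 2 lower with Yrr1IE, Yrr1Y and Yrr1S. Among them ADH1, the main fermentative alcohol dehydrogenase gene, had 0.85 with Yrr1IE, -2.02 with Yrr1Y and -2.26 with Yrr1S. HAP4, the gene for the activating subunit of the Hap complex, had 1.66, 0.73 and 1.08 with Yrr1IE, Yrr1Y and Yrr1S, and 3, 3 and 2 of the 4 Hap genes were higher.

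The comparison of 4NQO with YPD asks how the members respond to the compound with glucose still present. In 4NQO 6 of 7 members were higher with Yrr1IE, 4 of 7 with Yrr1Y and 7 of 7 with Yrr1S (edgeR, adjusted p below 0.05), where 12.9%, 10.3% and 15.9% of all loci tested were higher, and no member was lower. The median log2 fold change of the members was 1.23, 0.59 and 1.23, against 0.02, 0.03 and 0.03 for all loci tested. NDI1 measured 102.1 and 117.3 FPKM in 4NQO with Yrr1IE, against 44.4 and 37.5 FPKM in YPD. It measured 75.0 and 99 FPKM in 4NQO with Yrr1Y, against 75.3 and 81.1 FPKM in YPD, and 139.2 and 124.8 FPKM in 4NQO with Yrr1S, against 58.2 and 42.7 FPKM in YPD. The NDI1 libraries overlapped with Yrr1Y and were apart with the other alleles. The log2 fold change of NDI1 was 1.23 ± 0.16 with Yrr1IE, 0.05 ± 0.15 with Yrr1Y and 1.23 ± 0.15 with Yrr1S (edgeR, adjusted p = 7.5e-07, 0.87 and 1.6e-07).

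SDH1 also rose with Yrr1IE and Yrr1S and did not pass the test with Yrr1Y (edgeR, adjusted p = 0.21), although its 4NQO and YPD libraries were apart with every allele. It measured 118.8 and 149.5 FPKM in 4NQO with Yrr1IE, against 43.7 and 38.7 FPKM in YPD, 135.7 and 141.8 FPKM in 4NQO with Yrr1Y, against 95.8 and 111.6 FPKM in YPD, and 198.2 and 199.7 FPKM in 4NQO with Yrr1S, against 91.5 and 49.7 FPKM in YPD. SDH1 had log2 fold changes of 1.51 ± 0.18 with Yrr1IE, 0.31 ± 0.17 with Yrr1Y and 1.35 ± 0.17 with Yrr1S. SDH2 rose with all 3 alleles, by log2 fold changes of 1.27 ± 0.16, 0.81 ± 0.16 and 1.43 ± 0.16 with Yrr1IE, Yrr1Y and Yrr1S. SDH4 rose by 0.44 ± 0.15, 0.61 ± 0.14 and 0.97 ± 0.14, and SDH3 had 0.40 ± 0.15, 0.59 ± 0.15 and 0.82 ± 0.15, of which the Yrr1IE value did not pass the test (edgeR, adjusted p = 0.058, or 0.013 in a fit of only the libraries compared). Several of these calls were lost in fits that left out 1 library and so kept only 1 in that condition. The SDH4 call with Yrr1IE was lost without library 5, 6 or 11. That of SDH4 with Yrr1Y was lost without library 1, and that of SDH3 with Yrr1Y without library 2 or 7. Over all such fits SDH4 ran from 0.28 to 0.56 with Yrr1IE and from 0.49 to 0.73 with Yrr1Y. SDH3 with Yrr1Y ran from 0.48 to 0.68. With Yrr1S the SDH3 value was 0.51 without library 9 and still passed.

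NDE2 remained low in 4NQO. It had 30 and 42 counts with Yrr1IE, 53 and 52 with Yrr1Y and 61 and 72 with Yrr1S, against 10 and 22, 13 and 19, and 8 and 9 counts in YPD. These gave log2 fold changes of 1.56 ± 0.35 with Yrr1IE, 1.34 ± 0.33 with Yrr1Y and 2.73 ± 0.36 with Yrr1S (edgeR, adjusted p = 0.0011, 0.0037 and 6.6e-07). The NDE2 calls with Yrr1IE and with Yrr1Y were lost without library 12 (1.15, adjusted p = 0.055) and without library 1 (1.11, adjusted p = 0.077). NDE1 measured 488.2 and 463.1 FPKM in 4NQO with Yrr1IE, against 257.8 and 304.6 FPKM in YPD, and 780.9 and 763.6 FPKM in 4NQO with Yrr1S, against 545.3 and 512.8 FPKM in YPD. NDE1 had log2 fold changes of 0.57 ± 0.12 with Yrr1IE, 0.16 ± 0.12 with Yrr1Y and 0.38 ± 0.12 with Yrr1S (edgeR, adjusted p = 0.00085, 0.38 and 0.017). The NDE1 call with Yrr1S was lost without library 3, 4 or 9 (adjusted p = 0.082, 0.066 and 0.11).

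In the wider pathway, 7, 7 and 10 of the 10 bc1 and cytochrome c genes and 7, 7 and 11 of the 11 other tricarboxylic acid cycle genes were higher in 4NQO with Yrr1IE, Yrr1Y and Yrr1S. Of the other electron donor genes GUT2, DLD1 and CYB2, 1, 0 and 3 were higher. HAP4 had log2 fold changes of 0.98, -0.13 and 0.29, and was called higher with Yrr1IE only (edgeR, adjusted p below 0.05). The difference in HAP4 response between alleles is not reported here, and these calls alone do not show one.

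Between alleles the largest contrast was in glycerol. All 7 members were lower with Yrr1IE than with Yrr1S, and all 7 were lower with Yrr1IE than with Yrr1Y (edgeR, adjusted p below 0.05), where 27.6% and 26.1% of all loci tested were lower. The median log2 fold change of the members was -1.03 over Yrr1S and -1.29 over Yrr1Y, against -0.11 and -0.10 for all loci tested. Both comparisons use the same Yrr1IE libraries, in which SNF1 had at most 2 counts. NDE1 measured 256.9 and 262.5 FPKM with Yrr1IE, 917.2 and 782.5 FPKM with Yrr1Y and 843.2 and 917.1 FPKM with Yrr1S in glycerol. The Yrr1IE libraries lay far below the others, which overlapped. Its log2 fold change was -1.65 ± 0.13 over Yrr1Y and -1.61 ± 0.13 over Yrr1S (edgeR, adjusted p = 7.1e-12 and 9.2e-12). NDE2 had -1.49 ± 0.16 and -1.53 ± 0.16, SDH1 -1.66 ± 0.16 and -1.56 ± 0.16, and NDI1 -1.12 ± 0.14 and -0.90 ± 0.14 over Yrr1Y and over Yrr1S.

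The remaining succinate dehydrogenase genes differed less than SDH1 in both comparisons. SDH2 measured 1000.7 and 795.6 FPKM with Yrr1IE, 2354.0 and 2211.2 FPKM with Yrr1Y and 2051.1 and 1994.3 FPKM with Yrr1S. SDH3 measured 996.5 and 1154.5 FPKM with Yrr1IE, 2721.5 and 2548.7 FPKM with Yrr1Y and 2175.3 and 2163.4 FPKM with Yrr1S. SDH4 measured 1175.2 and 1347.9 FPKM with Yrr1IE, 2564.3 and 2455.5 FPKM with Yrr1Y and 1917.1 and 1983.5 FPKM with Yrr1S. The Yrr1IE libraries were the lowest for each gene. The log2 fold changes of Yrr1IE over Yrr1Y and over Yrr1S were -1.29 ± 0.14 and -1.03 ± 0.14 for SDH2, -1.23 ± 0.14 and -0.86 ± 0.14 for SDH3, and -0.93 ± 0.13 and -0.48 ± 0.13 for SDH4. The SDH4 call over Yrr1S was lost without library 17 (-0.36, adjusted p = 0.0502) and in a fit of only the libraries compared (-0.39, adjusted p = 0.059).

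Yrr1Y over Yrr1S in glycerol gave 1 member higher, SDH4, where 2.98% of all loci tested were higher. Its log2 fold change was 0.45 ± 0.13 (edgeR, adjusted p = 0.036). This SDH4 call was lost without any one of libraries 13, 14, 15 and 16 (adjusted p = 0.19, 0.19, 0.23 and 0.12) and in a fit of only the 4 libraries compared (0.083). NDE1, NDE2 and SDH1 had values of 0.03 ± 0.12, -0.04 ± 0.15 and 0.10 ± 0.15, and their libraries overlapped between the 2 alleles. NDI1, SDH2 and SDH3 had 0.22 ± 0.13, 0.26 ± 0.14 and 0.37 ± 0.14 and did not pass the test.

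**Figure D4:**
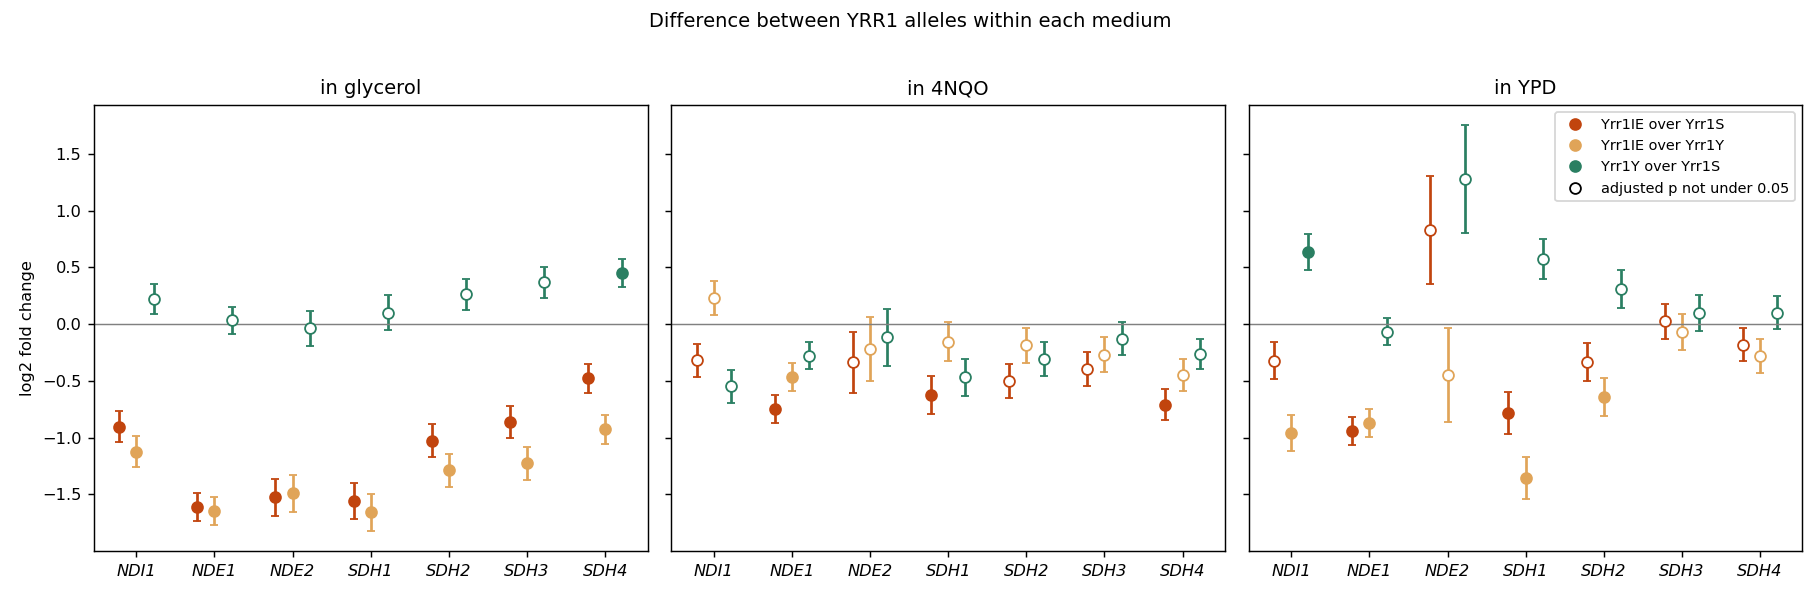
Log2 fold change (edgeR, error bars 1 SE) of each member between alleles in glycerol, 4NQO and YPD, with filled points where the adjusted p was below 0.05. In glycerol every Yrr1IE value lies between -1.66 and -0.48, and the Yrr1Y over Yrr1S values lie between -0.04 and 0.45.

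The rest of the pathway in glycerol divided by gene group. With Yrr1IE relative to Yrr1S, 7 of 10 bc1 and cytochrome c genes, 10 of 11 other tricarboxylic acid cycle genes and all 3 other electron donor genes were lower, with log2 fold changes of -1.98 for CYC1 and -2.06 for GUT2. None of the 4 succinate dehydrogenase assembly factor genes was called by edgeR. All 4 genes of NADH shuttling and reoxidation were higher, where 1191 of the 5766 loci tested were higher. ADH1 had 3.14 and GPD2, which encodes a glycerol 3-phosphate dehydrogenase, had 2.07. HAP4 measured 73.7 and 50.2 FPKM with Yrr1IE, 121.7 and 134.6 FPKM with Yrr1Y and 141.2 and 147.6 FPKM with Yrr1S. Its log2 fold change was -1.09 for Yrr1IE over Yrr1S (edgeR, adjusted p = 8.6e-06), and the part of HAP4 RNA in the members' levels was not tested. FBP1, a gluconeogenic gene, had 61 and 62 counts with Yrr1IE, 4641 and 4650 with Yrr1Y and 3582 and 4399 with Yrr1S.

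In 4NQO fewer members differed between alleles. With Yrr1IE relative to Yrr1S, 3 of 7 members were lower, where 2.5% of all loci tested were lower. They were NDE1 at a log2 fold change of -0.75 ± 0.12, SDH4 at -0.71 ± 0.14 and SDH1 at -0.62 ± 0.17 (edgeR, adjusted p = 0.00013, 0.0013 and 0.024). The SDH1 call was lost without library 9, 10, 11 or 12 (adjusted p = 0.14, 0.098, 0.27 and 0.058), and the SDH4 call without library 12 (0.09). SDH2 had -0.50 ± 0.15 and passed without library 10 (adjusted p = 0.042), with no low-count filter (0.035) and in a fit of only the libraries compared (0.045), and SDH3, at -0.40, passed without library 10 (0.015). Relative to Yrr1Y only NDE1 was lower with Yrr1IE, at -0.47 ± 0.12 (edgeR, adjusted p = 0.021), where 2.03% of all loci tested were lower. The NDE1 call was lost without library 7, 8, 11 or 12 (adjusted p = 0.11, 0.14, 0.055 and 0.27). Yrr1Y over Yrr1S gave 0 of 7 members by edgeR and 0 by DESeq2 1.42.0 as refitted here. By edgeR 4 members, SDH1, SDH2, NDI1 and NDE1, had an unadjusted p below 0.05. Over all loci tested 0.0173% were higher and 0.0347% lower by edgeR in that comparison, so that it made hardly any calls. NDI1 had a log2 fold change of -0.55 there. The paper, from its own DESeq2 1.8.1 fit at q below 0.05, reports NDI1 as significantly lower with Yrr1Y than with Yrr1S in 4NQO.

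In YPD with Yrr1IE relative to Yrr1S 2 of 7 members were lower, NDE1 at -0.94 ± 0.12 and SDH1 at -0.78 ± 0.19 (edgeR, adjusted p = 1.2e-06 and 0.0039), where 4.41% of all loci tested were lower. NDE1 measured 257.8 and 304.6 FPKM with Yrr1IE, 517.9 and 498.8 FPKM with Yrr1Y and 545.3 and 512.8 FPKM with Yrr1S, with the Yrr1IE libraries well below both others. The SDH1 call was lost without library 3 (-0.36, adjusted p = 0.3) or library 6 (-0.73, adjusted p = 0.058). Relative to Yrr1Y 4 of 7 were lower, where 6.73% of all loci tested were lower. They were SDH1 at -1.35 ± 0.18, NDI1 at -0.96 ± 0.16, NDE1 at -0.87 ± 0.12 and SDH2 at -0.64 ± 0.17. The SDH2 call was lost without library 2 (-0.50, adjusted p = 0.14) or library 6 (-0.44, adjusted p = 0.18).

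Yrr1Y over Yrr1S in YPD gave 1 member higher, NDI1 at 0.64 ± 0.16 (edgeR, adjusted p = 0.045), where 0.728% of all loci tested were higher. This NDI1 call was lost without library 1, 2 or 4 (adjusted p = 0.14, 0.27 and 0.61) and in a fit of only the libraries compared (0.091). SDH1 had 0.57 ± 0.18 and passed without library 3 (0.99, adjusted p = 0.007). In YPD HAP4 measured 21.7 and 17.1 FPKM with Yrr1IE, 67.5 and 77.6 FPKM with Yrr1Y and 73.1 and 48.4 FPKM with Yrr1S, and it was lower with Yrr1IE than with Yrr1S by edgeR (log2 fold change -1.67, adjusted p = 3e-07).

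Whether a response differed between alleles was tested as a difference of log2 fold changes in the same fit. The response to glycerol was smaller with Yrr1IE than with Yrr1S for 6 of 7 members (edgeR, adjusted p below 0.05), where 19.4% of all loci tested had a lower response. The differences were -2.35 ± 0.50 for NDE2, -0.89 ± 0.21 for SDH3, -0.78 ± 0.24 for SDH1, -0.69 ± 0.22 for SDH2, -0.67 ± 0.17 for NDE1 and -0.58 ± 0.21 for NDI1, and SDH4 had -0.29 ± 0.19 without passing the test. NDE1 and SDH3 passed in every fit that left out a library. The NDE2 call was lost without library 6 (-1.77, adjusted p = 0.057). The NDI1 call was lost without library 4, 5, 15, 16 or 18 (adjusted p = 0.2, 0.14, 0.075, 0.087 and 0.085), the SDH1 call without library 4, 5, 15 or 18 (0.17, 0.063, 0.068 and 0.084) and the SDH2 call without library 4, 5, 15 or 18 (0.13, 0.17, 0.064 and 0.071). A fit of only the libraries compared also lost NDI1, SDH1 and SDH2 (0.11, 0.061 and 0.063), and DESeq2 lost NDI1 (0.055). Without library 3 the SDH1 difference was -1.19.

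Relative to Yrr1Y the response to glycerol was smaller with Yrr1IE for 4 of 7 members, where 20.9% of all loci tested had a lower response. They were SDH3 at -1.16 ± 0.21, NDE1 at -0.77 ± 0.17, SDH4 at -0.64 ± 0.19 and SDH2 at -0.64 ± 0.22 (edgeR, adjusted p = 7.6e-05, 0.00086, 0.011 and 0.025). The SDH2 call was lost without library 1, 5, 13, 14 or 18 (adjusted p = 0.13, 0.22, 0.11, 0.073 and 0.098) and in a fit of only the libraries compared (0.0501), and the SDH4 call without library 1, 6, 13 or 17 (0.073, 0.051, 0.062 and 0.052). NDE2 had -1.04 ± 0.45 and passed without library 5 (-1.42, adjusted p = 0.033) or library 13 (-1.20, adjusted p = 0.037). Between Yrr1Y and Yrr1S the response to glycerol differed for 0 of 7 members by edgeR and 0 by DESeq2, and 1 member, NDE2 at -1.31 ± 0.50, had an unadjusted p below 0.05. Over all loci tested 0.364% had a higher and 0.26% a lower response in that comparison.

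The response to 4NQO differed between alleles for NDI1 and SDH1. With Yrr1Y it was smaller than with Yrr1S by log2 differences of -1.19 ± 0.21 for NDI1 and -1.04 ± 0.24 for SDH1 (edgeR, adjusted p = 0.0048 and 0.032), 2 of 7 members where 0.746% of all loci tested had a lower response. The NDI1 call was lost without library 4 or 7 (-1.02 and -1.0, adjusted p = 0.098 and 0.055). The SDH1 call was lost without any one of libraries 1, 2, 4, 7, 8, 9 and 10 (adjusted p between 0.051 and 0.35). With Yrr1IE the response was larger than with Yrr1Y, by 1.19 ± 0.22 for NDI1 and 1.20 ± 0.25 for SDH1 (edgeR, adjusted p = 0.00061 and 0.0024), 2 of 7 members where 2.72% of all loci tested had a higher response. Both comparisons use the same Yrr1Y libraries, in which the YPD levels of NDI1 and SDH1 were the highest of the 3 alleles. Between Yrr1IE and Yrr1S the response differed for 0 of 7 members by edgeR and 0 by DESeq2, and 2 members, NDE2 and SDH4, had an unadjusted p below 0.05. Over all loci tested 1.44% had a higher and 3.62% a lower response in that comparison.

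Relatives of 3 succinate dehydrogenase subunits were also transcribed. YJL045W, a minor isozyme of the flavoprotein, took up 13.4% ± 1.87 of the summed FPKM of SDH1 and YJL045W in glycerol with Yrr1IE, 11.5% ± 3.67 with Yrr1Y and 10.6% ± 0.670 with Yrr1S, against 11.7% ± 0.217, 5.25% ± 0.904 and 4.61% ± 0.527 in YPD (SD, n = 2 each). SHH3, the relative of SDH3, took up 27.4% ± 0.347 of their sum in glycerol with Yrr1IE, 12.4% ± 1.48 with Yrr1Y and 12.7% ± 2.19 with Yrr1S. SHH4, the relative of SDH4, took up 23.3% ± 0.257, 17.9% ± 1.86 and 27.8% ± 3.59. All 3 relatives were higher in glycerol than in YPD with each allele by edgeR. In glycerol with Yrr1IE relative to Yrr1S, YJL045W and SHH4 were lower, whereas SHH3 was higher, at a log2 fold change of 0.50. SDH3 itself was lower there, and the coding sequences of the pair shared at most 10 identical bases in a row at any position.

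As a description, the log2 CPM of the members was correlated over the 18 libraries, which share 9 conditions. The members other than NDE1 correlated with each other at Pearson r = 0.951 to 0.989, and NDE1 with the rest at 0.32 to 0.55. With the 7 members left out of the search, the loci closest to NDI1 were CYT1, GUT2, OM14, GLC3 and KGD1, at r = 0.980 to 0.984. Those closest to NDE2 were AGX1, CRC1, LEE1, YJL045W and FMP40, at r = 0.988 to 0.992. The mean of the 4 succinate dehydrogenase genes was closest to AGX1, OM14, QCR9, BDH2 and ALD4, at r = 0.988 to 0.992. The loci closest to NDE1, OCH1, MIC17, PRY1, NPP1 and PHO89, reached only r = 0.867 to 0.934.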

How the data were processed

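Total RNA of 18 samples was made into unstranded paired-end TruSeq libraries by the authors and sequenced on a MiSeq. Per the methods and processing notes, reads were sorted with CASAVA 1.7, ribosomal and transfer RNA reads were set aside, TopHat2 2.0.12 mapped the rest to S288c (R64), and Rsubread counted them. The deposited table of counts was tested as whole reads per locus, and the deposited FPKM, rounded by the authors to 1 decimal, gave levels. A deposited table of the authors' DESeq2 1.8.1 comparisons (fold changes, standard errors, p-values) was not used.

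Loci passing filterByExpr (5766 of 6713; 7126 in the FPKM table) were fitted with edgeR 4.0.16 (R 4.3.3, limma 3.58.1) by TMM and the two-sided quasi-likelihood test, with 1 coefficient per condition and 21 comparisons, Benjamini-Hochberg over all loci and adjusted p below 0.05. This gave a common dispersion of 0.0122. Depth was 1475372 to 2826771 counts, so genes with few counts, such as NDE2 in YPD, are imprecise. Promoters, positions and identities came from the R64 sequence and annotation (Python 3.11.15, Biopython 1.88). Of 5985 annotated nuclear protein-coding loci found in the table, 5977 had the same coordinates. The tests were checked on simulated data. Alternatives were DESeq2 1.42.0, DESeq2 size factors, no filter, only the libraries compared, and leaving out each library.

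All 7 members are named throughout, and in other lists up to 3 genes, those called with the largest change. HAP4 was followed across comparisons after its values were seen. Members and lists were chosen with earlier results of these data known.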

Additional observations from a re-analysis of the deposited data

Results flagged for a closer look

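The results below were singled out because the same change of medium gave different log2 fold changes with different alleles, by a test of the difference itself (edgeR quasi-likelihood, adjusted p below 0.05). Every condition has 2 libraries.

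For glycerol over YPD, Yrr1IE minus Yrr1S, the differences were -2.35 for NDE2, -0.89 for SDH3, -0.78 for SDH1, -0.69 for SDH2, -0.67 for NDE1 and -0.58 for NDI1. For the same medium, Yrr1IE minus Yrr1Y, they were -1.16 for SDH3, -0.77 for NDE1, -0.64 for SDH4 and -0.64 for SDH2. SNF1 had 0 to 2 counts in the Yrr1IE libraries, against 179 to 297 counts in the others. Its part in these differences cannot be told apart from that of the allele or of the lower YRR1 RNA in the Yrr1IE libraries.

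For 4NQO over YPD, Yrr1Y minus Yrr1S, the differences were -1.19 for NDI1 and -1.04 for SDH1. Yrr1IE minus Yrr1Y gave 1.19 for NDI1 and 1.20 for SDH1. Both pairs use the same Yrr1Y libraries, so they are not separate evidence.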

How the results depend on the processing

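No paired analysis was possible because which libraries shared a culture was not given. The library numbers run on through the conditions and do not show it. No call of a member in glycerol over YPD was lost in any alternative. DESeq2 kept the direction and call of 146 of 147 gene results, as did DESeq2 size factors. No filter kept 145, and a fit of only the libraries compared kept 137. With only the libraries compared, members higher in Yrr1Y over Yrr1S were 0 in glycerol and 0 in YPD (1 each in the fit of all libraries), members with a lower glycerol response in Yrr1IE than in Yrr1S were 3 (against 6), and NDE1 in Yrr1Y over Yrr1S in glycerol was -0.011. With no filter the NDI1 difference in 4NQO response, Yrr1IE minus Yrr1S, was -0.0068.

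Leaving out each library in turn gave these ranges of members called: 4NQO over YPD 5 higher each time with Yrr1IE (6 with all libraries), 2 to 4 with Yrr1Y and 6 to 7 with Yrr1S, Yrr1Y over Yrr1S 0 higher each time in glycerol and 0 to 2 higher in YPD, Yrr1IE over Yrr1S 6 to 7 lower in glycerol, 1 to 4 lower in 4NQO and 1 to 2 lower in YPD, and Yrr1IE over Yrr1Y 0 lower each time in 4NQO and 3 to 4 lower in YPD. Lower responses numbered 3 to 6 for glycerol in Yrr1IE minus Yrr1S, 2 to 4 for glycerol in Yrr1IE minus Yrr1Y and 0 to 2 for 4NQO in Yrr1Y minus Yrr1S. The counts of the other comparisons were the same each time.

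Values that changed sign on leaving out a library were all uncalled. In Yrr1Y over Yrr1S they were, in glycerol, NDE1 (-0.075 to 0.12), NDE2 (-0.31 to 0.18) and SDH1 (-0.030 to 0.20), in 4NQO SDH3 (-0.39 to 0.18) and in YPD SDH4 (-0.025 to 0.21). For Yrr1IE they were NDE2 over Yrr1S (-0.70 to 0.0096) and over Yrr1Y (-0.60 to 0.13) in 4NQO, and SDH3 over Yrr1S (-0.066 to 0.11) and over Yrr1Y (-0.16 to 0.014) in YPD. Over YPD they were NDE1 in glycerol with Yrr1IE (-0.27 to 0.038) and NDI1 in 4NQO with Yrr1Y (-0.18 to 0.23). In the 4NQO response, Yrr1IE minus Yrr1S, they were NDI1 (-0.16 to 0.16), SDH1 (-0.26 to 0.50) and SDH2 (-0.38 to 0.053), with NDE2 in Yrr1IE minus Yrr1Y (-0.17 to 0.81) and SDH3 in Yrr1Y minus Yrr1S (-0.48 to 0.087). SDH2 in the glycerol response, Yrr1Y minus Yrr1S, ran from -0.26 to 0.15.

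Over all loci, higher counts by the 18-library edgeR fit changed most for the glycerol response in Yrr1Y minus Yrr1S (21, against 33 with no filter and 36 by DESeq2), the 4NQO response in Yrr1Y minus Yrr1S (7, against 12 with no filter and 15 with only the libraries compared) and in Yrr1IE minus Yrr1S (83, against 141), and Yrr1Y over Yrr1S in glycerol (172, against 105). In 4NQO, Yrr1Y over Yrr1S gave 1 higher, against 2 with only the libraries compared, and 2 lower, against 4 by DESeq2. The causes were not tested.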
